A study of Homo sapiens with 21 samples.

Results

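The H3K4 methyltransferase genes examined here are the 6 that encode the catalytic subunits of the MLL and SET1 complexes (KMT2A, KMT2B, KMT2C, KMT2D, SETD1A and SETD1B) and the 4 that encode the core subunits shared by all of these complexes (WDR5, ASH2L, RBBP5 and DPY30). They were chosen by gene symbol, with no measured value in the rule, although earlier results of these data were known at that point. All 10 were found among the 66738 genes of the count table, and all 10 were among the 17939 genes that passed the filter on low counts. RS4;11 is an established line of B-cell precursor acute lymphoblastic leukaemia that carries a KMT2A-AFF1 fusion. Its cells were kept for 24 h in 3 media. These were complete medium (+Asn), medium without asparagine (-Asn), and medium without asparagine supplemented with ferric nitrate (10 µM) together with the iron ionophore hinokitiol (0.75 µM), written -Asn+Fe. Each medium had 3 RNA libraries and 3 H3K4me3 ChIP libraries, and 3 input libraries of the series were not used here. The labels do not say whether hinokitiol was also present in the other media, so effects of iron and of hinokitiol cannot be told apart. Nor do they say that the 3 libraries of a medium are separate cultures. The p-values therefore measure the spread between libraries, which may be technical.

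Methylation of lysine 4 of histone H3 marks promoters and enhancers of active genes. In mammals most of it is laid down by 6 enzymes of the KMT2 family, each of which works inside a complex with WDR5, RBBP5, ASH2L and DPY30, a module without which the SET domains are weak enzymes. SETD1A and SETD1B are regarded as the main sources of bulk trimethylation at promoters, KMT2A and KMT2B act on narrower sets of promoters that include the HOX clusters, and KMT2C and KMT2D mainly monomethylate enhancers. In leukaemias with a rearranged KMT2A gene, the fusion protein keeps the amino-terminal part of KMT2A and loses its methyltransferase domain. All these enzymes use S-adenosylmethionine as methyl donor. The demethylases that remove H3K4 trimethylation, the KDM5 enzymes, need iron, oxygen and 2-oxoglutarate.

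The RNA libraries held 29362707 to 42478518 counts, and single members had between 327 counts (DPY30) and 23205 counts (KMT2C) in a library. All 10 B-lineage markers were above 1 CPM (the library-scaled count, with TMM factors), with summed levels of 2868 to 2955 CPM in +Asn, 2581 to 2656 CPM in -Asn and 2303 to 2394 CPM in -Asn+Fe. The 5 T-lineage and 3 erythroid markers were all under 1 CPM, as were MPO and ELANE of the 5 myeloid markers and 3 of the 4 stromal and epithelial ones. LYZ, another myeloid marker, was at 1.23 to 1.44 CPM in +Asn and at 0.16 to 0.53 CPM in the other media. The remaining myeloid markers, CSF1R and CD33, were higher without asparagine. CSF1R averaged 9.66 CPM in +Asn, 16.6 in -Asn and 13.3 in -Asn+Fe, and CD33 1.90, 2.93 and 2.74 CPM. Single B-lineage markers moved in both directions, among them PAX5 (966 CPM in +Asn, 1310 in -Asn) and IGLL1 (281 and 66.8 CPM). In libraries made from bulk cells, fewer cells of a type and less RNA per cell cannot be told apart. The strand setting of the counting is not given in the sources used here, which bears on exons shared with other genes. KMT2A shared 18.9% of its exon length, chiefly with AP001267.5 on the same strand, a gene with 33 counts over the 9 libraries, and with AP001267.3 on the other strand. DPY30 shared 50.8% with MEMO1 on the same strand, so its counts are the least certain of the 10. Exons on the opposite strand were shared by KMT2B with IGFLR1, KMT2C with FABP5P3, KMT2D with DDN-AS1, SETD1A with AC135048.4, WDR5 with BX649632.1 (11.2% of its exon length) and ASH2L with STAR. SETD1B and RBBP5 shared none.

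One RNA library stood apart in a way that touches the longest members. In -Asn replicate 1, genes with 1 to 2 kb of exon sequence had a median log2 deviation of 0.20 from the mean of the other 2 -Asn libraries, and genes over 16 kb had one of -0.25. KMT2A, KMT2C and KMT2D have exon lengths of 31305, 20114 and 20485 bp, the longest of the members. Their log2 deviations in that library were -0.48, -0.69 and -0.67. ASH2L and DPY30, with 5910 and 2725 bp, deviated the other way, by 0.26 and 0.28. Values without -Asn replicate 1 are given below where they change a call or a direction, or move a difference by over 1.5 times.

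**Figure D1:**
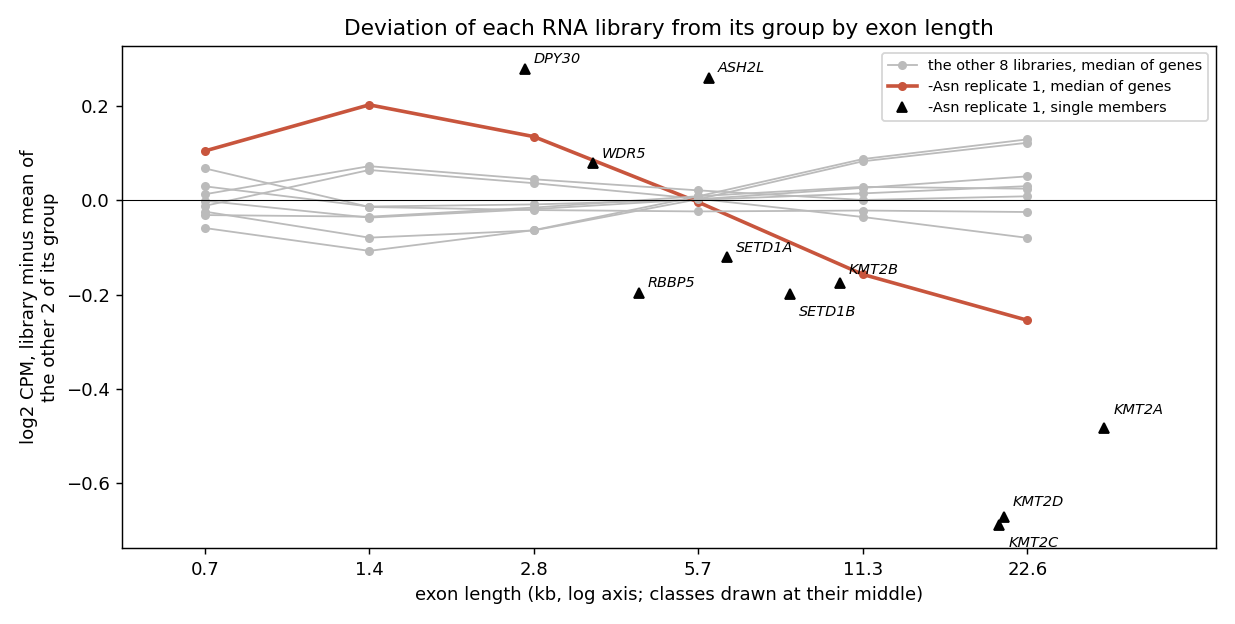
Difference of each RNA library from the mean of the other 2 libraries of its medium (vertical axis, log2 CPM) by exon length (horizontal axis, kb, log scale). Lines join the medians of genes in 6 length classes, and triangles are the 10 members in -Asn replicate 1. In that library the line falls from 0.20 at 1 to 2 kb to -0.25 over 16 kb, and KMT2A, KMT2C and KMT2D lie at -0.48 to -0.69.

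The promoters of the members differ in their CpG content. Unmethylated CpG is what the CXXC domains of KMT2A, KMT2B and the SET1-complex subunit CXXC1 bind. RefSeq promoter sequences (GRCh38.p14) were found for 7 of the 10 members. The 250 bases before the RefSeq start are shown for the fused gene KMT2A, for KMT2B, whose RNA was higher in -Asn, and for SETD1A and WDR5, whose RNA was lowest in -Asn+Fe. They are written 5′ to 3′ on the strand of the gene, with each CpG in capitals. KMT2A is at chr11:118436242-118436491 (plus strand), KMT2B at chr19:35717753-35718002 (plus strand), SETD1A at chr16:30957504-30957753 (plus strand) and WDR5 at chr9:134135127-134135376 (plus strand).
KMT2A: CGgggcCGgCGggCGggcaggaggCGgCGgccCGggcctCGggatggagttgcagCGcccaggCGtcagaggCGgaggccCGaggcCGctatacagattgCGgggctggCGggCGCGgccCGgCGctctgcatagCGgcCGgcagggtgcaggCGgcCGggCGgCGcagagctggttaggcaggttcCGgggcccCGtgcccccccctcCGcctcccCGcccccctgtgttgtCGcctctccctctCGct
KMT2B: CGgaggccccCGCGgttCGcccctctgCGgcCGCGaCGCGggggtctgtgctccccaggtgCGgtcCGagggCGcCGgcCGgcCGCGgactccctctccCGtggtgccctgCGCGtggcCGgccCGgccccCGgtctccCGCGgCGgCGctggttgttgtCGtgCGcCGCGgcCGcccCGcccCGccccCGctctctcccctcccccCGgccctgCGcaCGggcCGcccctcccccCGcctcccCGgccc
SETD1A: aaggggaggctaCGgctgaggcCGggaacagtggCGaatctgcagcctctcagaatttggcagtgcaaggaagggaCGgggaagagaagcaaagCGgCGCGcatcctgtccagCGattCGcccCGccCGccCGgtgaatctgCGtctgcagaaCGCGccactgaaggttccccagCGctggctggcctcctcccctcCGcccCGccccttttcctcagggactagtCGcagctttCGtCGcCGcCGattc
WDR5: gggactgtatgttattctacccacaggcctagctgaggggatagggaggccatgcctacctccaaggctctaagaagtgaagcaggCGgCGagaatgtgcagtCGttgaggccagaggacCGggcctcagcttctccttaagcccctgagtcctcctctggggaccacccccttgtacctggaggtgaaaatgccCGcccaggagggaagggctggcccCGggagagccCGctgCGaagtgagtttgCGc
The KMT2A window holds 31 CpGs, that of KMT2B 40, that of SETD1A 23 and that of WDR5 9, against a median of 11 over the 35116 windows of the table. Among those not shown, KMT2C holds 48, KMT2D 23 and RBBP5 12. Each of the 7 windows lies inside the H3K4me3 region of its gene. The RefSeq start of KMT2D lies 1020 bp upstream of the 5' end used elsewhere here, while the others lie within 37 bp of theirs. Of 4 short motifs searched on both strands, the E-box CACGTG was found in 1 of the 7 windows (KMT2D) and in 6.34% of all windows. The CCAAT box was in 0 of the 7 and in 32.0% of all windows. The ETS core CCGGAAG was in 0 of the 7 and in 8.52%. The TATA box, TATAAA, was in 0 of the 7 and in 10.7%.

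Per length of exon, WDR5 was the most abundant member in +Asn at 33.5 ± 1.26 RPKM (CPM per kilobase of exon, mean ± SD, n = 3). SETD1A followed at 25.5 ± 1.41, KMT2C at 21.8 ± 2.41, KMT2D at 21.5 ± 1.43, KMT2A at 17.7 ± 1.24, SETD1B at 16.6 ± 0.533, RBBP5 at 14.3 ± 0.299, ASH2L at 12.3 ± 0.0832, KMT2B at 9.24 ± 0.343 and DPY30 at 8.66 ± 0.376 RPKM. The libraries of KMT2C and KMT2D overlapped, as did those of KMT2A and SETD1B and those of KMT2B and DPY30. The other neighbours in this order did not overlap. In -Asn the order was less distinct, since the libraries of WDR5 (20.8 ± 0.654 RPKM), KMT2C (20.5 ± 5.18), KMT2D (20.0 ± 5.31) and SETD1A (17.3 ± 0.840) each overlapped the next. KMT2A (11.4 ± 2.09), RBBP5 (11.2 ± 0.857), ASH2L (11.1 ± 1.23), KMT2B (10.8 ± 0.993) and SETD1B (10.8 ± 0.920) also overlapped one after the other, and DPY30 was lowest at 5.42 ± 0.658 RPKM. In -Asn+Fe the enhancer enzymes KMT2C (25.4 ± 0.139 RPKM) and KMT2D (23.6 ± 0.973) stood first, with all their libraries above those of WDR5 (16.5 ± 1.30). SETD1B (15.0 ± 0.274) now stood above SETD1A (12.998 ± 0.458), followed by KMT2A (12.3 ± 0.198), RBBP5 (12.2 ± 0.350), KMT2B (10.6 ± 0.415), ASH2L (8.71 ± 0.659) and DPY30 (4.46 ± 0.553). KMT2A and RBBP5 were the only neighbours in -Asn+Fe whose libraries overlapped. In +Asn, 92.4% of the genes tested had a lower RPKM than WDR5 and 71.0% a lower one than DPY30.

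As shares of the summed RPKM of the 6 methyltransferases, which no scaling between libraries can change, SETD1A made up 22.9%, 22.8% and 22.5% in the 3 +Asn libraries. In -Asn its shares were 22.1%, 17.1% and 18.8%. With iron and hinokitiol they were 13.02%, 13.4% and 12.6%. The 3 media did not overlap for SETD1A, and the -Asn library closest to +Asn was replicate 1. KMT2A went from 15.6 to 15.9% in +Asn to 12.1 to 12.8% in -Asn and 12.1 to 12.8% in -Asn+Fe, so its share in both asparagine-free media lay below every +Asn library. KMT2C made up 18.2 to 20.1% in +Asn and 25.1 to 25.97% in -Asn+Fe, and KMT2D 18.4 to 19.7% and 22.8 to 24.0%. In -Asn both enhancer enzymes spread widely, KMT2C over 19.7 to 24.0% and KMT2D over 19.3 to 24.1%, with the lowest value of each in -Asn replicate 1. KMT2B was at 8.08 to 8.47% in +Asn, 11.1 to 13.5% in -Asn and 10.4 to 11.0% in -Asn+Fe. SETD1B was at 13.99 to 15.6%, 11.29 to 13.2% and 14.9 to 15.1%. The 4 core subunits together made up 38.0 ± 2.06% of the summed RPKM of all 10 members in +Asn, 35.1 ± 4.75% in -Asn and 29.5 ± 0.694% in -Asn+Fe. The +Asn libraries ran from 36.5 to 40.3%. In -Asn replicate 1, where long genes were low, the share was 40.5%, against 31.5% and 33.3% in -Asn replicates 2 and 3.

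**Figure D2:**
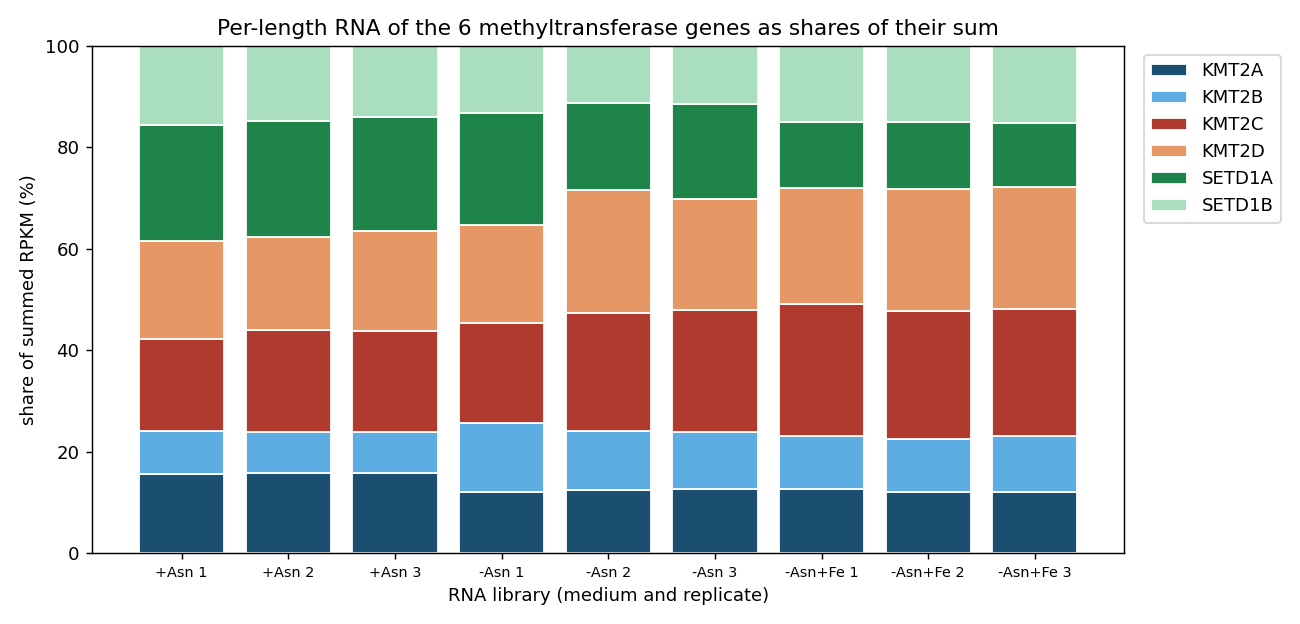
Share of the summed RPKM of the 6 methyltransferase genes (vertical axis, percent) taken by each gene in the 9 RNA libraries (horizontal axis). SETD1A narrows from 22.5 to 22.9% in +Asn to 12.6 to 13.4% in -Asn+Fe, while KMT2C widens from 18.2 to 20.1% to 25.1 to 25.97%.

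Whether the genes of the H3K4 writers respond to loss of asparagine was read from -Asn against +Asn. KMT2A, SETD1A, SETD1B, WDR5, RBBP5 and DPY30 fell (6 of 10), KMT2B rose (1 of 10), and KMT2C, KMT2D and ASH2L were not called. Calls here and below are edgeR adjusted p under 0.05 over all 17939 genes. Of all genes 61.2% were called, 31.0% higher and 30.2% lower, so a share of 7 in 10 members called is near that of genes in general. The median log2 change of the members was -0.46, against 0.04 over all genes. The libraries of the media did not overlap for the same 7 members, and for 65.5% of all genes (33.4% higher, 32.1% lower). None of the falls exceeded 1.61-fold (WDR5).

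With iron and hinokitiol added to asparagine-free medium, SETD1B rose and SETD1A, WDR5 and ASH2L fell (-Asn+Fe against -Asn). The other 6 members were not called. Of all genes 30.8% were called in this comparison, 14.0% higher and 16.8% lower, which is also near the members' 4 in 10. The members' median log2 change was 0.04 against -0.01 over all genes. Libraries did not overlap for 6 of the 10, higher for KMT2C, SETD1B and RBBP5 and lower for SETD1A, WDR5 and ASH2L, and for 43.2% of all genes (20.5% higher, 22.7% lower).

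Against complete medium, the -Asn+Fe cells had lower RNA of KMT2A, SETD1A and all 4 core subunits (6 of 10) and higher RNA of KMT2B (1 of 10). SETD1B, KMT2C and KMT2D were not called. Of all genes 64.7% were called, 32.9% higher and 31.9% lower. The members' median log2 change was -0.36 against 0.05 over all genes, and that of the 4 core subunits alone was -0.72. Libraries did not overlap for 9 of the 10 members, KMT2D being the exception. The same held for 70.6% of all genes (35.9% higher, 34.6% lower). This comparison shares its +Asn libraries with the first and its -Asn+Fe libraries with the second, so the 3 are not independent of each other.

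**Figure D3:**
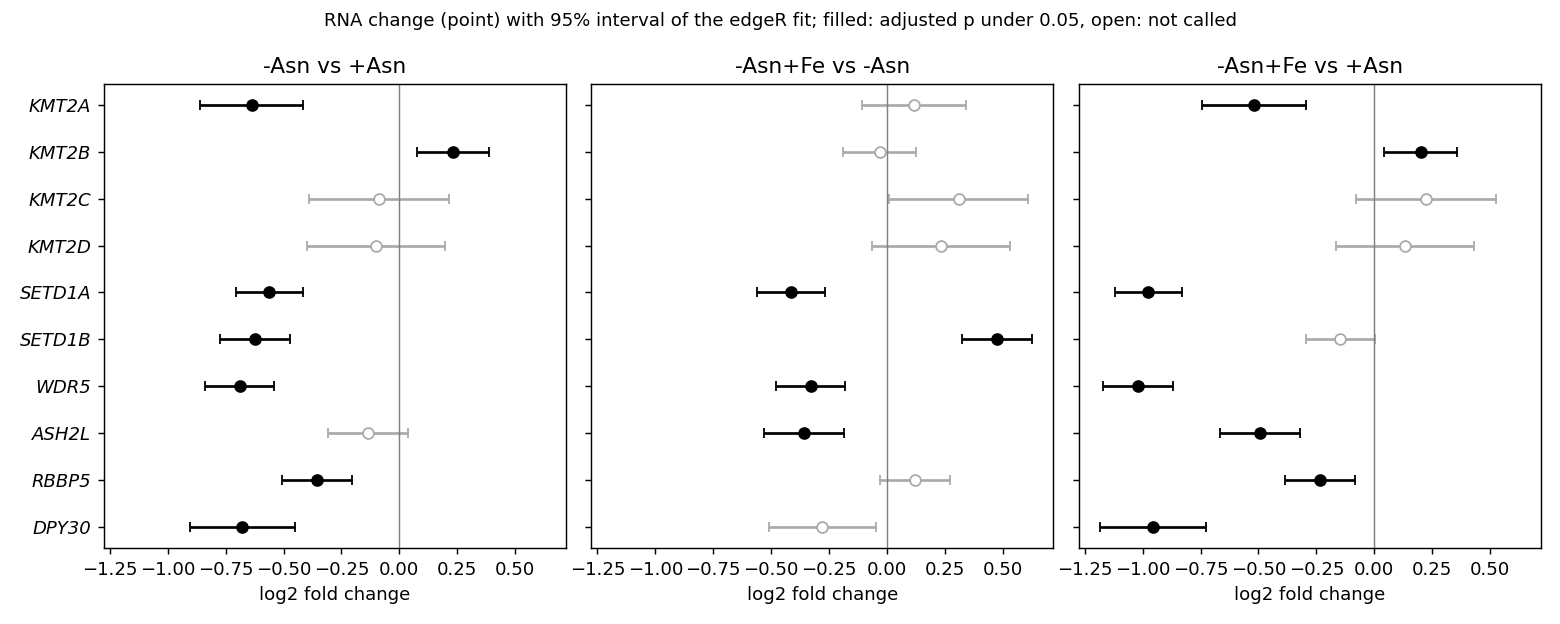
Log2 fold change in RNA (horizontal axis) of the 10 members (vertical axis) in 3 comparisons, with the 95% interval of the edgeR fit. Filled points have an adjusted p under 0.05. SETD1A and WDR5 lie left of 0 in all 3 panels, SETD1B lies left of 0 in the first panel (-0.62) and right of it in the second (0.48), and the intervals of KMT2C and KMT2D are the widest.

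KMT2A (chr11:118436464-118526832, plus strand, hg38) is the founding member of the family and the gene broken in these cells. It was at 509, 576 and 577 CPM in +Asn, at 281, 404 and 382 CPM in -Asn and at 393, 385 and 380.4 CPM in -Asn+Fe. Every library without asparagine, with or without iron, lay below every +Asn library. KMT2A RNA fell by 0.64 on the log2 scale in -Asn (SE 0.106, 1.56-fold lower, edgeR adjusted p = 6.34e-05), and by 0.50 when -Asn replicate 1 was left out. It did not differ detectably between -Asn+Fe and -Asn (log2 0.12, 95% interval -0.11 to 0.34; -0.01 without -Asn replicate 1). In -Asn+Fe it was 1.43-fold lower than in +Asn (edgeR adjusted p = 0.000397). The counts of KMT2A take in reads of the KMT2A-AFF1 fusion as well as of the intact allele, which gene-level counts do not separate. Those of AFF1 likewise take in reads of the fusion, so the changes of KMT2A and AFF1 are not independent of each other. AFF1, the fusion partner and a scaffold of elongation complexes, was at 596, 662 and 634 CPM in +Asn, 275, 415 and 404 CPM in -Asn and 441, 429 and 428 CPM in -Asn+Fe. The AFF1 libraries without asparagine all lay below those with it, -Asn replicate 1 the lowest. AFF1 RNA fell by 0.79 in -Asn (SE 0.118, edgeR adjusted p = 2.99e-05) and by 0.54 in -Asn+Fe against +Asn (edgeR adjusted p = 0.000812). Its difference between -Asn+Fe and -Asn was not called (log2 0.25, edgeR adjusted p = 0.126), although it passed as higher without -Asn replicate 2 (0.35), and it was 0.09 without -Asn replicate 1. The AFF1 promoter region also holds the 5' ends of AC093827.4 and AC093827.5.

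KMT2B (chr19:35718019-35738878, plus strand), the closest relative of KMT2A, was the only member whose RNA rose without asparagine. It was at 90.9, 96.6 and 97.4 CPM in +Asn, 103, 123 and 109 CPM in -Asn, and 106, 108 and 114 CPM in -Asn+Fe. Every library without asparagine lay above every +Asn library, by little. The rise was 1.17-fold in -Asn (log2 0.23, SE 0.0739, edgeR adjusted p = 0.0122) and 1.149-fold in -Asn+Fe against +Asn (log2 0.20, edgeR adjusted p = 0.0257). The first call was lost without +Asn replicate 1 (log2 0.20) or -Asn replicate 2 (0.16), and the second with DESeq2, with no filter on low counts, and without -Asn+Fe replicate 3 or any single +Asn library (0.15 to 0.20). Neither passed a test against a 1.2-fold change. Between -Asn+Fe and -Asn the log2 difference was -0.03 (95% interval -0.19 to 0.12), and -0.08 without -Asn replicate 1.

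KMT2C (chr7:152134922-152436005, minus strand) and KMT2D (chr12:49018975-49059774, minus strand), the enhancer monomethyltransferases, were not called in any of the 3 comparisons. KMT2C was at 383, 469 and 463 CPM in +Asn, 293, 483 and 462 CPM in -Asn, and 513, 513 and 508 CPM in -Asn+Fe. KMT2D was at 411, 439 and 469 CPM in +Asn, 293, 508 and 428 CPM in -Asn, and 459.8, 494 and 495 CPM in -Asn+Fe. For both genes -Asn replicate 1 was the lowest of the 9 libraries, and the other 2 -Asn libraries lay within or near the range of +Asn. The -Asn to +Asn log2 difference was -0.09 for KMT2C (95% interval -0.39 to 0.21) and -0.10 for KMT2D (-0.40 to 0.20). Without -Asn replicate 1 these differences were 0.11 and 0.09, and neither was called. All 3 -Asn+Fe libraries of KMT2C were above the 6 others. Its log2 difference was 0.31 from -Asn (edgeR adjusted p = 0.110) and 0.22 from +Asn (0.178). Leaving out -Asn replicate 1 turned the comparison of -Asn+Fe with +Asn into a call for both genes. KMT2C was then at log2 0.23 (edgeR adjusted p = 0.00154) and KMT2D at 0.14 (edgeR adjusted p = 0.0404). That library is in neither group compared and enters only through the fit shared by all 9 libraries. The KMT2C difference itself hardly moved, from 0.22 to 0.23. Scaling by upper quartiles or by library totals also called both higher in this comparison, KMT2C at 0.43 and 0.48 and KMT2D at 0.35 and 0.39. Leaving out -Asn replicate 2 made both genes higher in -Asn+Fe than in -Asn, by log2 0.44 and 0.42. Without -Asn replicate 1 these differences shrank to 0.13 for KMT2C (edgeR adjusted p = 0.164) and 0.05 for KMT2D (0.596), from 0.31 and 0.24 with all libraries.

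The ratio of KMT2C to KMT2A, both per length and within a library, was 1.17 to 1.27 in +Asn, 1.62 to 1.88 in -Asn and 2.03 to 2.08 in -Asn+Fe. The ratio of KMT2D to KMT2A was 1.17 to 1.24, 1.59 to 1.92 and 1.79 to 1.99. These ratios need no scaling between libraries, and in -Asn replicate 1 they were 1.62 and 1.59, above all +Asn libraries. They were chosen after the values were seen and are given without a test. The ratio of KMT2C to KMT2D stayed between 0.948 and 1.14 over the 9 libraries.

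SETD1A (chr16:30957754-30984664, plus strand), a catalytic subunit of the SET1 complex, stepped down in each medium. It was at 153, 169 and 166 CPM in +Asn, 104, 112 and 114 CPM in -Asn, and 81.5, 86.2 and 80.8 CPM in -Asn+Fe. None of the 3 groups overlapped. SETD1A RNA fell by 0.56 in -Asn (SE 0.0683, 1.48-fold lower, edgeR adjusted p = 2.00e-06). It fell by a further 0.41 in -Asn+Fe (SE 0.0687, 1.33-fold lower, edgeR adjusted p = 0.000262), which left it 1.97-fold below +Asn. All 3 calls held in each of the 19 alternative settings tried.

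SETD1B (chr12:121804180-121832584, plus strand), its paralogue, moved with SETD1A when asparagine was removed and against it when iron and hinokitiol were added. It was at 135, 143 and 135 CPM in +Asn, 81.4, 96.6 and 90.3 CPM in -Asn, and 122, 125 and 127 CPM in -Asn+Fe. The -Asn libraries were the lowest, and the -Asn+Fe libraries lay between them and +Asn with no overlap. SETD1B RNA fell by 0.62 in -Asn (SE 0.0710, 1.54-fold lower, edgeR adjusted p = 9.33e-07) and rose by 0.48 from -Asn to -Asn+Fe (1.39-fold, edgeR adjusted p = 9.25e-05). Its difference from +Asn in -Asn+Fe was -0.15 and was not called (95% interval -0.30 to 0.00, edgeR adjusted p = 0.0795). It passed as lower without -Asn replicate 1 (-0.14), which is in neither group compared, and when only the 6 libraries compared were fitted (-0.13). Within a library the ratio of SETD1B to SETD1A per length was 0.622 to 0.680 in +Asn, 0.599 to 0.659 in -Asn and 1.11 to 1.201 in -Asn+Fe. This ratio was also chosen after its values were seen, and the -Asn+Fe libraries stood clear of the 6 others.

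Among the core subunits, WDR5 (chr9:134135365-134159968, plus strand), the WD40 protein that docks the catalytic subunits, fell in all 3 comparisons. It was at 126, 117 and 122 CPM in +Asn, 78.1, 73.9 and 74.1 CPM in -Asn, and 56.7, 65.4 and 57.98 CPM in -Asn+Fe. The 3 groups did not overlap. WDR5 RNA fell by 0.69 in -Asn (SE 0.0708, 1.61-fold lower, edgeR adjusted p = 2.76e-07) and by a further 0.33 in -Asn+Fe (SE 0.0713, edgeR adjusted p = 0.00230). It was 2.03-fold lower in -Asn+Fe than in +Asn (edgeR adjusted p = 1.86e-09). The fall from -Asn to -Asn+Fe did not pass the test against a 1.2-fold change.

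DPY30 (chr2:31867809-32039805, minus strand), which binds ASH2L and is the smallest core subunit, was at 24.7, 22.7 and 23.4 CPM in +Asn, 16.7, 14.4 and 13.2 CPM in -Asn, and 12.4, 10.5 and 13.5 CPM in -Asn+Fe. Both asparagine-free groups lay below +Asn, and they overlapped each other. DPY30 RNA fell by 0.68 in -Asn (SE 0.106, 1.599-fold lower, edgeR adjusted p = 3.42e-05) and by 0.96 in -Asn+Fe against +Asn (1.94-fold lower, edgeR adjusted p = 7.39e-07). Its log2 difference between -Asn+Fe and -Asn was -0.28 (edgeR adjusted p = 0.0641), and it was called lower without -Asn replicate 3 (-0.34). Without -Asn replicate 1 it was -0.17 (edgeR adjusted p = 0.252). MEMO1, with which DPY30 shares exons, fell in -Asn as well, from 9.12 ± 0.384 to 6.19 ± 0.647 CPM (log2 -0.56, edgeR adjusted p = 0.000998). The part of shared reads in the DPY30 result was not tested.

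ASH2L (chromosome 8), which forms with RBBP5 the dimer that activates the SET domain, was at 71.9, 72.4 and 72.9 CPM in +Asn, 74.0, 60.01 and 63.7 CPM in -Asn, and 49.9, 55.9 and 48.6 CPM in -Asn+Fe. The -Asn libraries overlapped +Asn through replicate 1 alone, and the -Asn+Fe libraries lay below the 6 others. In -Asn the ASH2L log2 difference was -0.14 (95% interval -0.31 to 0.04, edgeR adjusted p = 0.159), and without -Asn replicate 1 it was -0.23 and was called. ASH2L fell by 0.36 from -Asn to -Asn+Fe (SE 0.0822, edgeR adjusted p = 0.00356), and it was 1.41-fold lower in -Asn+Fe than in +Asn (edgeR adjusted p = 5.59e-05).

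RBBP5 (chr1:205086142-205122015, minus strand), the partner in that dimer, was at 64.5, 61.99 and 62.5 CPM in +Asn, 44.8, 51.1 and 51.6 CPM in -Asn, and 52.8, 55.4 and 52.6 CPM in -Asn+Fe. The 3 groups did not overlap, and -Asn was the lowest. RBBP5 RNA fell by 0.36 in -Asn (SE 0.0712, 1.28-fold lower, edgeR adjusted p = 0.000357) and was 1.18-fold lower than +Asn in -Asn+Fe (log2 -0.23, edgeR adjusted p = 0.00882). The call in -Asn was lost in 2 of 19 alternative settings, and that in -Asn+Fe against +Asn in 4. Both changes depend on how libraries are scaled. With library totals alone in place of TMM factors, RBBP5 was at log2 -0.15 in -Asn and at 0.02 in -Asn+Fe against +Asn, and neither was called. That scaling moved the median of all genes from 0.04 to 0.25 in the first comparison and from 0.05 to 0.31 in the second. Its difference between -Asn+Fe and -Asn was 0.12 and was not called (95% interval -0.03 to 0.28), and it was 0.07 without -Asn replicate 1.

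**Figure D4:**
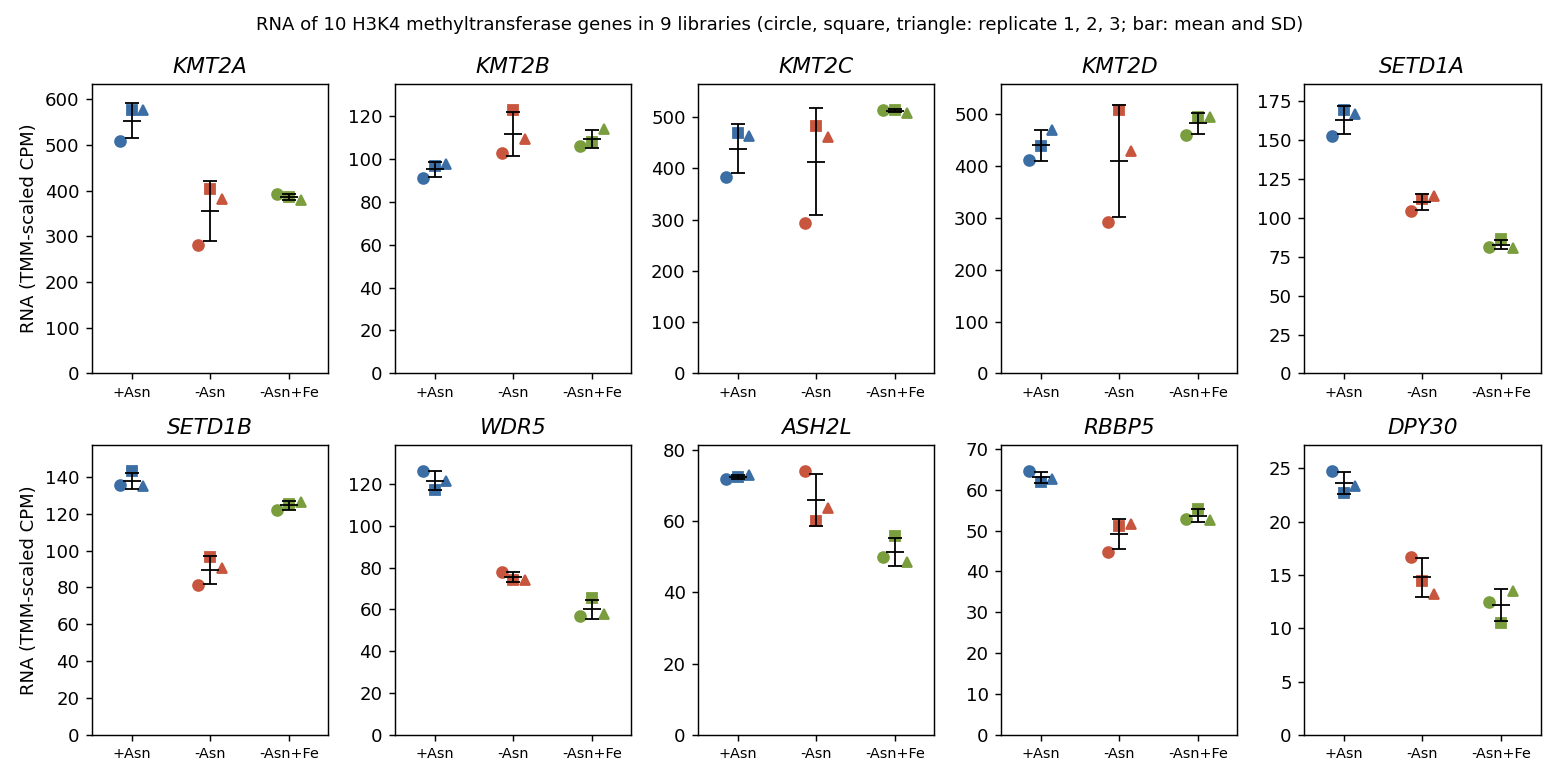
RNA of each member in CPM (vertical axes, from 0) in the 9 libraries by medium (horizontal axes), with mean and SD of 3 libraries. SETD1A and WDR5 step down from +Asn to -Asn to -Asn+Fe, SETD1B is lowest in -Asn (81.4 to 96.6 CPM), and the -Asn values of KMT2C and KMT2D spread from 293 to 483 and from 293 to 508 CPM.

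Over the 9 RNA libraries, the gene whose centred log2 CPM lay closest to a member was another member for none of the 10. This likeness is the root mean square difference over 9 libraries, computed against the 10103 genes that averaged 5 CPM or more. Its median over those genes was 0.292 to 0.421. The other members are very few among so many genes, so a nearest gene outside the set carries no result about the members. WDR5 lay closest to MANEAL (0.0304), ASH2L to GATB (0.0313), RBBP5 to VIRMA (0.0332) and KMT2C to ASH1L (0.0391), another gene of a histone methyltransferase. KMT2A lay closest to PBRM1 (0.0420), a chromatin remodelling subunit, and SETD1B to UBQLN2 (0.0426). KMT2B, DPY30, SETD1A and KMT2D lay closest to AC026470.1 (0.0518), UBE2E3 (0.0523), SELENON (0.0535) and ATP11A (0.0779). Between members the smallest distances were 0.0816 for KMT2C and KMT2D and 0.103 for SETD1A and WDR5. The likeness takes in -Asn replicate 1, where long genes were low and KMT2C and KMT2D deviated by -0.69 and -0.67. The part of that library in these distances was not tested. KMT2A was nearest to RBBP5 (0.172), and KMT2B and ASH2L were farthest from any other member, at 0.212 from KMT2D and 0.236 from RBBP5.

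The list of 13 genes specific to some of these complexes holds subunits and TASP1, the protease that cleaves KMT2A and KMT2B. Of these 13 in -Asn against +Asn, 5 fell (PAXIP1, HCFC1, CXXC1, PAGR1 and WDR82) and 4 rose (BOD1L1, HCFC2, KDM6A and TASP1), with a median log2 change of -0.03. The call of HCFC2 (edgeR adjusted p = 0.0491) was lost in 13 of 19 other settings. Those of TASP1, PAGR1, BOD1L1 and WDR82 were lost in 5, 3, 2 and 2. PAXIP1, which joins the KMT2C and KMT2D complexes, went from 105 ± 7.76 to 43.6 ± 0.291 CPM (log2 -1.27, edgeR adjusted p = 1.69e-10). HCFC1, a cofactor of the SET1 and KMT2A complexes, went from 758 ± 23.4 to 359.7 ± 53.8 CPM (log2 -1.08). KDM6A, the H3K27 demethylase of the KMT2C and KMT2D complexes, rose from 115 ± 4.99 to 161 ± 19.4 CPM (log2 0.48). CXXC1, the CpG-binding subunit of the SET1 complexes, fell from 63.8 ± 4.38 to 46.4 ± 4.72 CPM (log2 -0.46). From -Asn to -Asn+Fe 3 fell and none rose. These were PAXIP1 (log2 -0.42), PAGR1 (-0.35) and MEN1 (-0.43), the menin subunit of the KMT2A and KMT2B complexes. The MEN1 call was lost in 1 of 19 other settings and the PAGR1 call in 8. Among those 8 were the fits without -Asn replicate 1 (-0.22) or without any single -Asn+Fe library. From +Asn to -Asn+Fe 6 fell and 3 rose.

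Of 6 other enzymes reported to methylate H3K4, 4 were tested and none was called higher, although KMT2E passed as higher in -Asn with upper quartiles (0.20) or library totals (0.26). SMYD3 (18.1 ± 1.43 to 7.67 ± 0.382 CPM, log2 -1.24) and SMYD2 (72.6 ± 1.49 to 41.0 ± 1.33 CPM, log2 -0.82) fell in -Asn, while KMT2E (log2 0.05) and SETD7 (-0.09) were not called. None of the 4 was called between -Asn+Fe and -Asn. SMYD1 and PRDM9 had 10 and 2 counts in all 9 libraries and were not tested.

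Of the 5 H3K4 demethylases, KDM5B and KDM5C rose and KDM1A and KDM1B fell in -Asn. KDM5A was not called there, although its call differed in 6 of 19 other settings. It was at 239, 233 and 259 CPM in +Asn, 228, 309 and 315 CPM in -Asn, and 322, 318 and 312 CPM in -Asn+Fe, lowest in -Asn replicate 1. From +Asn to -Asn+Fe 3 of the 5 rose and 1 fell. KDM5B, which removes tri- and dimethylation, went from 0.895 ± 0.164 to 11.7 ± 0.610 CPM (log2 3.69, edgeR adjusted p = 1.56e-12). KDM5C went from 263 ± 7.35 to 369 ± 28.9 CPM (log2 0.49). KDM1A, a demethylase that needs FAD in place of iron, went from 222 ± 8.54 to 98.5 ± 4.05 CPM (log2 -1.18), and its relative KDM1B changed by log2 -0.35. From -Asn to -Asn+Fe KDM5B (log2 0.34) and KDM1B (0.27) rose and none of the 5 fell. The KDM5B call was lost without -Asn replicate 2 (0.33), -Asn+Fe replicate 1 (0.31) or replicate 3 (0.34).

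Of 9 genes that make and recycle the methyl donor, 6 passed the filter, and all 6 fell in -Asn, with a median log2 change of -0.65. The smallest of these falls, MTRR, was not called with upper quartiles (-0.13) or library totals (-0.08). MAT2A, which makes S-adenosylmethionine outside the liver, was at 619.5, 659.7 and 657 CPM in +Asn, 347, 372 and 384 CPM in -Asn, and 634, 647 and 625 CPM in -Asn+Fe. The -Asn libraries stood clear below both other groups, which overlapped each other. MAT2A fell by 0.81 in -Asn (SE 0.0682, edgeR adjusted p = 2.39e-08) and rose by 0.79 from -Asn to -Asn+Fe (edgeR adjusted p = 2.51e-07). AHCY, which clears the product S-adenosylhomocysteine, went from 226 ± 14.8 to 106 ± 11.3 CPM (log2 -1.09) and was not called between -Asn and -Asn+Fe (log2 -0.09, edgeR adjusted p = 0.463). MTR, methionine synthase, and ADK, adenosine kinase, fell by 0.70 and 0.59. From -Asn to -Asn+Fe, MAT2A and MTRR (log2 0.25) rose and ADK fell by 0.21. The MTRR call was lost without -Asn replicate 2, -Asn+Fe replicate 1 or replicate 3 (0.23 to 0.25), and the ADK call in 16 of 19 other settings. MTAP, MAT1A and BHMT had 7, 15 and 0 counts over the 9 libraries and were not tested.

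A region of H3K4me3 was called at the 5' end of all 10 members in all 9 libraries. The same held for 80.1% of the 12388 tested protein-coding genes, and for 91.3% of those whose mean level was at least that of the lowest member. The deposited regions give peak positions only, with no heights or read counts, so a peak's width is the measure used, and the depth behind it is unknown. SETD1B had the widest region of the 10, at chr12:121799121-121807265 (hg38), where the mean width over 9 libraries was 7875 bp. Of 9274 such regions at 5' ends of protein-coding genes, 99.6% were narrower. The SETD1B region also holds the 5' ends of RHOF and of the noncoding genes LINC01089 and AC084018.2, so its width is not that of the SETD1B promoter alone. Other genes also start in the regions of KMT2A (AP001267.2), KMT2C (FABP5P3), SETD1A (AC135048.3) and WDR5 (BX649632.1). KMT2D (5258 bp, chr12:49056183-49061735) and KMT2A (4950 bp, chr11:118433987-118439289) were also wide, with 98.4% and 97.8% of regions narrower. KMT2B had 3343 bp, WDR5 2620, KMT2C 2408, ASH2L 2243, SETD1A 2215 and RBBP5 2075 bp, all above the median of 1891 bp. DPY30 had 1329 bp, wider than 19.4% of regions, and was the only member below that median. The KMT2A region reached 2228 to 2477 bp upstream and 2458 to 2825 bp downstream of the gene's outer 5' end over the 9 libraries.

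None of the 10 regions was called for a change in width between media by limma's test (adjusted p under 0.05 over 13883 regions called in all 9 libraries). In -Asn against +Asn 16.1% of all regions were called, nearly all of them wider (2032 or 14.6% wider, 201 or 1.45% narrower). With widths centred on the median of each library, 16.3% were called, and the split became 1227 wider (8.84%) and 1039 narrower (7.48%). For the members both versions gave 0 of 10 called. At an unadjusted limma p under 0.05 stood 4524 of all regions (32.6%) and 0 of 10 members. With centred widths these were 4443 of the 13883 regions and 5 of 10 members. The KMT2A region was 4922, 4711 and 4960 bp wide in +Asn, 5007, 5199 and 5045 bp in -Asn, and 5008, 4766 and 4936 bp in -Asn+Fe. Its -Asn libraries lay above +Asn, by a log2 difference of 0.06 (95% interval -0.02 to 0.14). The SETD1A region was 2317, 2217 and 2220 bp wide in +Asn, 2131, 2264 and 2258 bp in -Asn, and 2279, 1990 and 2256 bp in -Asn+Fe, with all groups overlapping (log2 -0.02 in -Asn, 95% interval -0.15 to 0.10). The SETD1B region was 7861, 7983 and 7824 bp wide in +Asn, 7676, 8036 and 7821 bp in -Asn, and 7980, 7748 and 7943 bp in -Asn+Fe, a log2 difference of -0.01 in -Asn and 0.01 from -Asn to -Asn+Fe. The KMT2C region, too, had all -Asn widths (2388 to 2477 bp) above all +Asn widths (2332 to 2353 bp), at a log2 difference of 0.06 (limma adjusted p = 0.253). The median over all 13883 regions was 0.09. The estimates of KMT2A and KMT2C lay below it, but the KMT2A interval holds both 0 and 0.09. Whether either region differs from that median was not tested. Over all settings tried, both ran from -0.03 to 0.08. The share of all regions whose media did not overlap was not computed. Without centring, the log2 difference in -Asn ran over the 10 regions from -0.05 (ASH2L) to 0.06 (KMT2A). Over all settings tried, the lowest value was -0.14, at ASH2L.

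From -Asn to -Asn+Fe 0 of the 10 regions were called by limma, as were 0.00% of all regions (0 of 13883, of which 1042 or 7.51% had an unadjusted p under 0.05). From +Asn to -Asn+Fe 13.6% of all regions were called (1621 or 11.7% wider, 266 or 1.92% narrower) and 0 of 10 members. An unadjusted limma p under 0.05 was found at 4120 of all regions (29.7%) and at ASH2L alone among the members. The ASH2L region was 2227, 2409 and 2389 bp wide in +Asn, 2262, 2297 and 2208 bp in -Asn, and 2068, 2211 and 2117 bp in -Asn+Fe. All -Asn+Fe values lay below all +Asn values, at a log2 difference of -0.13 (limma adjusted p = 0.0794). The share of all regions with such a separation in this comparison was not computed. With widths centred on the median of each library, the regions of ASH2L (log2 -0.20), RBBP5 (-0.17) and WDR5 (-0.14) were called narrower in this comparison. With this centring 16.6% of all regions were called, 1256 wider (9.05%) and 1052 narrower (7.58%). Libraries differed in how much was called, from 14741 to 17448 regions and from 25085495 to 30112364 bp covered, and the part of this in the widths was not tested.

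**Figure D5:**
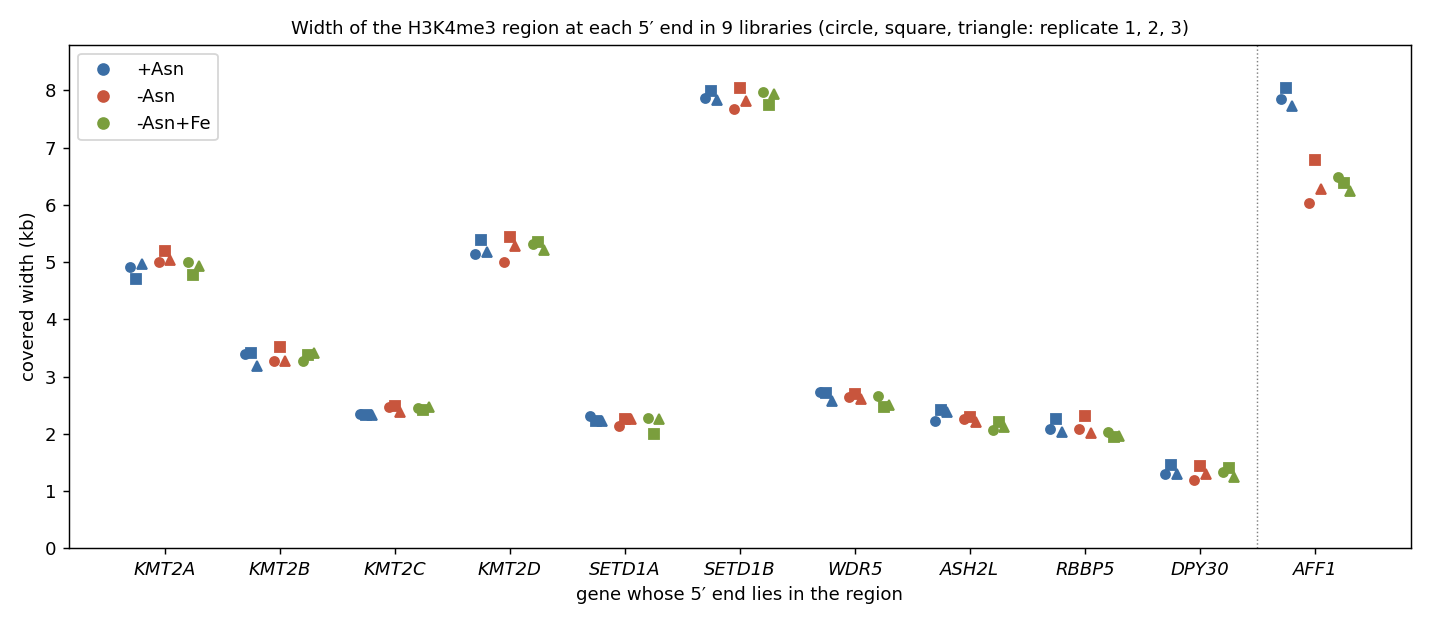
Covered width in kb (vertical axis, from 0) of the H3K4me3 region at the 5' end of each of the 10 members and of AFF1 (horizontal axis) in 9 ChIP libraries. The 3 media overlie each other at most members, while at AFF1 the +Asn libraries (7721 to 8050 bp) lie above both other groups.

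Inside the bodies of the members 3 further regions were called in all 9 libraries, and 1 of them was called for a change. At the 3' end of KMT2D (chr12:49017605-49020654, hg38) the region was 1985, 1867 and 2021 bp wide in +Asn, 2606, 2754 and 2761 bp in -Asn, and 2870, 2856 and 2607 bp in -Asn+Fe. Both asparagine-free groups lay above +Asn. It was wider by log2 0.47 in -Asn (SE 0.0514, limma adjusted p = 0.000361) and by 0.50 in -Asn+Fe (limma adjusted p = 0.000232), with calls kept in all 13 alternatives. This region holds the 5' end of PRKAG1, a regulatory subunit of AMP-activated kinase that follows KMT2D on the same strand. PRKAG1 RNA was at 41.9 ± 2.36 CPM in +Asn, 68.8 ± 8.42 in -Asn and 56.2 ± 2.13 in -Asn+Fe, and rose by 0.71 in -Asn (edgeR adjusted p = 1.55e-06). The region inside DPY30 holds the 5' end of MEMO1 and was not called (log2 -0.05 in -Asn), although it passed as narrower with widths centred on library medians (-0.14, limma adjusted p = 0.0135). The region inside SETD1B was 682 to 1406 bp wide over the 9 libraries and was not called either.

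At the fusion partner AFF1 the region at the 5' end narrowed. It was 7854, 8050 and 7721 bp wide in +Asn, 6039, 6780 and 6280 bp in -Asn, and 6479, 6378 and 6241 bp in -Asn+Fe. Both asparagine-free groups lay below +Asn (log2 -0.31 in each, limma adjusted p = 0.00210 and 0.00216). When the outer span of the peaks was used in place of their covered length, the difference in -Asn was -0.24 and was not called. The region at the 5' end of KMT2A, the other gene of the fusion, was not called in either comparison.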

How the data were processed

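RS4;11 libraries were grouped by medium from their labels (3 RNA and 3 H3K4me3 libraries per medium). The authors deposited raw counts per gene on hg38, and the submitters' processing notes name STAR 2.7.2a and featureCounts of Subread 1.6.5. The same notes name MACS2 2.2.7.1, Bowtie2 2.4.4 and Picard 2.18.26, with no roles, taken here to concern the H3K4me3 libraries, and the deposited table lists peak coordinates per library. Columns headed untreated there were read as complete medium. RNA totals were 29362707 to 42478518 counts.

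Counts were tested with edgeR 4.0.16 (R 4.3.3, TMM factors, quasi-likelihood test, 9 libraries in 1 fit, residual df 6) after edgeR's default expression filter, with Benjamini-Hochberg adjustment over 17939 genes and a threshold of 0.05. CPM and RPKM were computed from these counts. Covered widths were tested with limma 3.58.1 on the log2 scale over 13883 regions. A promoter region is one within 1000 bp of a gene's outer 5' end. Intervals are 95% intervals of these fits. The scripts were tested on simulated data. DESeq2 1.42.0 served as an alternative.

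All 10 members are named, with up to 4 genes of each other list that had the largest called change in -Asn against +Asn, AFF1, the gene most like each member, and genes that share exons with a member or start in its H3K4me3 promoter region. Genes beyond this rule (MEN1, PAGR1, WDR82, BOD1L1, HCFC2, TASP1, MTRR, KMT2E, SETD7, KDM5A) were named after their values were seen. The members and lists were chosen with earlier results of these data known. Same-numbered libraries did not deviate together (correlations of -0.08 to 0.07 for RNA and -0.21 to 0.09 for widths), so numbers were not used as pairs.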

Additional observations from a re-analysis of the deposited data

How the results depend on the processing

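Over 19 alternative settings, 535 of the 570 log2 changes of members kept direction and call. The calls in -Asn against +Asn of KMT2A, SETD1A, SETD1B, WDR5 and DPY30 held in all 19. One value reversed, RBBP5 in -Asn+Fe against +Asn, at 0.021 with library totals against -0.23. In the same comparison 4 uncalled genes of the other lists passed as higher instead, KMT2E (0.21 with upper quartiles, 0.25 with library totals), MAT2A (0.19 and 0.23), MTRR (0.22, library totals) and KDM1B (0.18, library totals). Of 1767 values for these other genes 1649 kept direction and call. Library totals moved the all-gene median in -Asn against +Asn from 0.04 to 0.25, and upper quartiles to 0.20, and calls went from 5558 higher and 5413 lower to 7335 and 3840 and to 6904 and 4222. Members higher in -Asn against +Asn numbered 1, with 0 in the test against a 1.2-fold change and 0 to 1 with one library left out (0 without +Asn replicate 1 or -Asn replicate 2). From -Asn to -Asn+Fe, 1 was higher, with 2 under the replicate block (KMT2C, 0.34, was added) and 1 to 3 with one library left out (3 without -Asn replicate 2), and 3 were lower, with 1 in the 1.2-fold test, which called 2323 of all genes against 5526. From +Asn to -Asn+Fe, 1 was higher, with 0 by DESeq2, without a filter or in the 1.2-fold test, 2 with a stricter filter, 3 with upper quartiles, library totals or only the libraries compared, and 0 to 3 with one library left out (0 without any single +Asn library or -Asn+Fe replicate 3, 3 without -Asn replicate 1). An offset for exon length, chosen after seeing the data, changed no call of a member. The replicate block changed no other call of a member. Of 420 width differences at member promoters 417 kept their call, and centring on library medians called 3 narrower in -Asn+Fe against +Asn, against 0, and moved the split of all called regions between wider and narrower, as given above. The cause of these changes was not tested. Leaving out -Asn replicate 1 changed the calls of ASH2L, KMT2C, KMT2D and SETD1B given above. Each member had at least 327 counts in every RNA library, so the 3 libraries per medium, more than depth, limit the precision. For H3K4me3 the depth behind a width is unknown.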
